A study of Mus musculus with 6 samples.

Results

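The cytosolic and mitochondrial heat shock proteins and the chaperonin were followed in 393P, a mouse lung tumour line, through 46 listed genes: the HSP70, HSP90 and small HSP families, the mitochondrial chaperones, the J-domain partners, the co-chaperones and the subunits of the CCT ring. Members were taken from the array's gene annotation, keeping probe sets assigned to a single listed gene and, for a gene with several, the brightest over all arrays. This gave 43 genes out of 18193 measured. Hsp90ab1 and Hsf1 were not analysed here, and the probe sets of Ptges3 are shared with its pseudogene and were left out. Both groups came from the 393P population, which was grown from a primary lung tumour of p53R172H∆g/+ K-rasLA1/+ mice. The control group carried a scrambled control vector (3 arrays) and the other group a vector for MKK4 knockdown by short hairpin RNA, or shRNA (3 arrays). The labels describe triplicate cultures of each population, so the p-values here rest on the spread of cultures and not of independently made lines. They give retroviral infection in one place and Lipofectamine transfection in another.

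Heat shock proteins are molecular chaperones. HSP70 binds exposed hydrophobic stretches of unfolded proteins in an ATP-driven cycle in which J-domain proteins start ATP hydrolysis and nucleotide exchange factors such as the HSP110 and BAG proteins release the client. HSP90 then matures kinases and receptors with its own co-chaperones, small HSPs hold unfolded proteins, and the CCT ring folds actin and tubulin. Tumour cells depend on several of these proteins, and HSPB1 (HSP27) is phosphorylated downstream of p38, one of the kinases that MKK4 activates.

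The targeted transcript was lower in the shRNA cultures. Map2k4, the gene of MKK4, gave 700, 638 and 597 intensity units on the control arrays and 240, 295 and 287 on the shRNA arrays, and the groups did not overlap. The log2 change was -1.21 (SE 0.079, limma adjusted p = 0.000127). The 6 arrays had medians of 92.0 to 95.76 units, and the trpnX control probe sets, a gauge of background, reached at most 39.47 units. Epithelial markers were bright (summed level 43478 to 43774 units in control and 42502 to 43649 in shRNA arrays; 3 of 6 fell and 1 rose). No lung lineage, fibroblast, leukocyte or endothelial marker passed the test (0 of 5, 8, 6 and 5), and 2 of each list stayed at or below background on all arrays: Nkx2-1 and Scgb1a1, Dcn and Pdgfrb, Cd3e and Itgam, and Pecam1 and Vwf. Others were above it, among them Sftpb (241 to 291 units), Col1a2 (185 to 208), Csf1r (633 to 850) and Kdr (277 to 456). The summed levels in control and shRNA arrays were 398 to 430 and 397 to 453 units for lung lineage, 503 to 550 and 487 to 566 for fibroblast, 1137 to 1222 and 1061 to 1265 for leukocyte, and 544 to 681 and 492 to 627 for endothelial markers. The part of these markers in the results was not tested. The 3′ to 5′ signal ratio of 18S ribosomal RNA ran from 0.392 to 0.424 in control and from 0.276 to 0.358 in shRNA arrays. For beta-actin it ran from 1.33 to 1.37 and from 1.34 to 1.38. The part of the 18S difference in the results was not tested.

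Of the 43 members 8 rose and 4 fell in the shRNA cultures, and 31 did not pass the test (limma, Benjamini-Hochberg adjusted p under 0.05). The changes were small: the largest fall was that of Hspb1, 1.49-fold, and the largest rise that of Dnajb4, 1.44-fold. The HSP70 and HSP110 family (11 measured, 54.5% called) and the J-domain proteins (7 measured, 42.9% called) held 9 of the 12 changed genes, in both directions. The CCT ring (7 measured), the HSP60 and HSP10 pair (2), the HSP90 family (2) and its co-chaperones (4) held none. These groups are small, and whether their shares differ was not tested. Called members made up 27.9% against 11.8% of all genes tested (6.37% higher and 5.39% lower). Members are mostly bright genes, however: 41 of 43 were no dimmer than the median gene, and among such genes 20.8% were called (10.9% higher and 9.90% lower), against 29.3% of those members. Whether these shares differ was not tested. The median log2 change of the members was 0.02, beside -0.01 over all genes. Overlap was judged on deposited intensities, before the quantile normalization that preceded the test. The groups did not overlap in 16 higher and 7 lower members, beside 14.6% and 11.3% of all genes (26.0% in either direction). Among the 9097 genes no dimmer than the median gene the counts were 1949 higher and 1450 lower, and among the 41 such members 16 and 7. Whether members differ from genes of like brightness in this was not tested. The number of rises was 4 without control replicate 3, without shRNA replicate 2 or without shRNA replicate 3, while 4 members still fell in each of these fits.

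**Figure D1:**
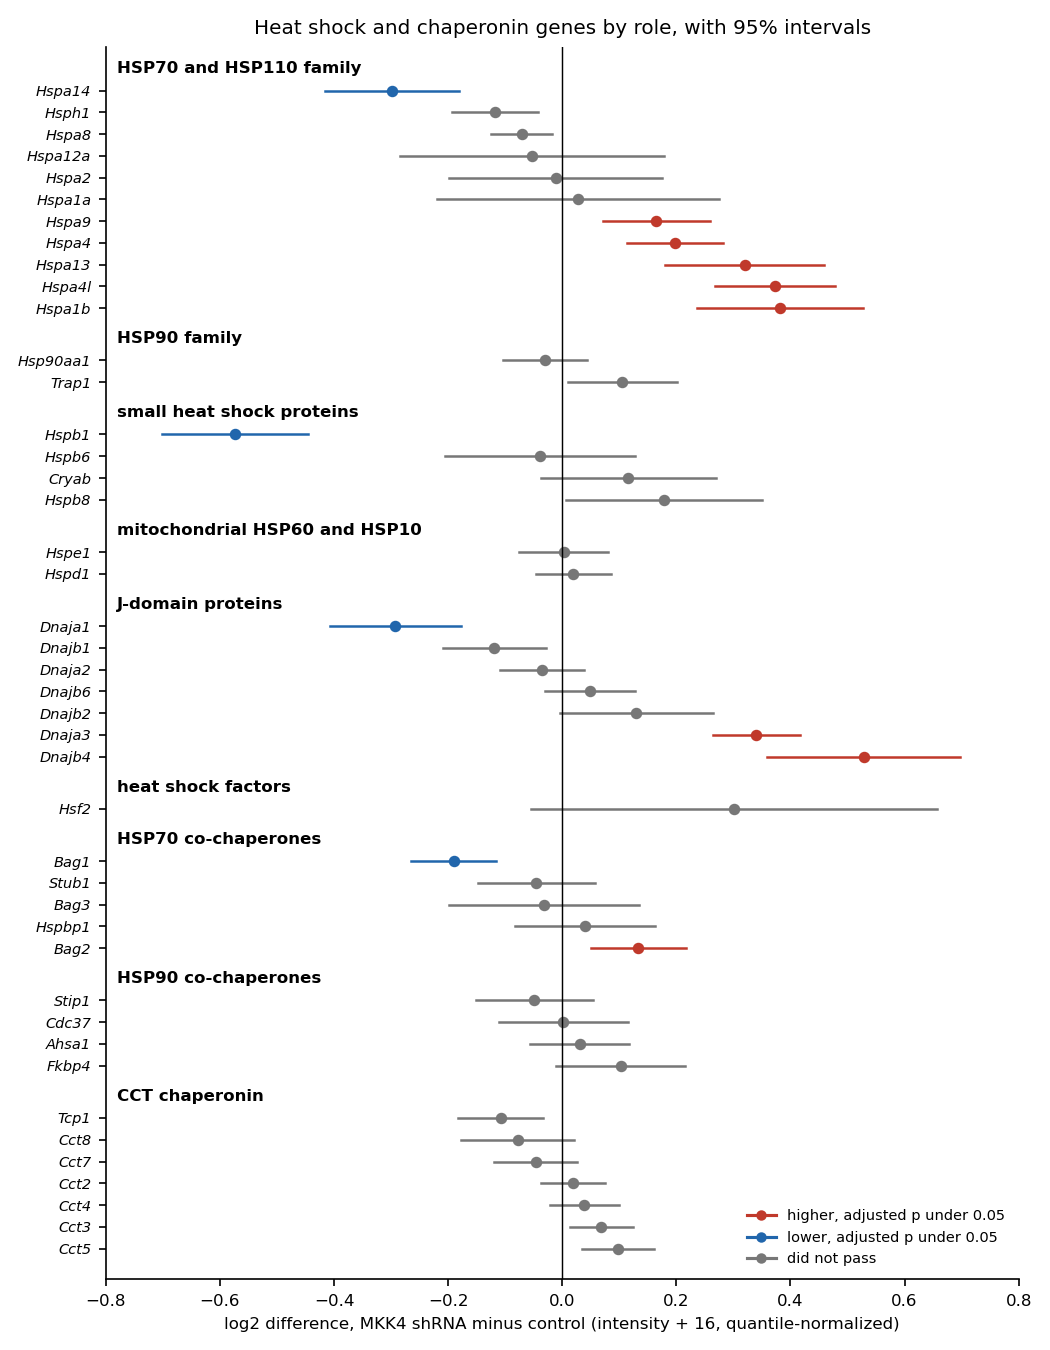
Log2 difference between MKK4 shRNA and control cultures (horizontal axis, log2 of intensity + 16 after quantile normalization) for each of the 43 genes, grouped by role. Points are limma estimates over 3 arrays a group and bars their 95% intervals; Hspb1 at -0.57 and Dnajb4 at 0.53 lie farthest from 0, and the 7 CCT genes lie between -0.11 and 0.10.

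Heat shock genes are classically driven by heat shock factors, which bind arrays of the unit GAA in alternating orientation. The promoters of 6 members are shown because they hold such units and because the genes differ in their calls: Hspb1 and Dnaja1 fell, Hspa1b rose, and Hspa1a, Hspe1 and Dnajb6 did not pass the test. Each is the 150 bases before the annotated start on the gene's strand (RefSeq, GRCm38.p6), with matches to GAANNTTC or TTCNNGAA in capitals:
Hspb1, chr5:135887769-135887918, plus strand: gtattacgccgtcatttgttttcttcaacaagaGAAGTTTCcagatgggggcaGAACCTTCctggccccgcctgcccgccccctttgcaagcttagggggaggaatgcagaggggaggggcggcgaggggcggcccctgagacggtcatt
Dnaja1, chr4:40722318-40722467, plus strand: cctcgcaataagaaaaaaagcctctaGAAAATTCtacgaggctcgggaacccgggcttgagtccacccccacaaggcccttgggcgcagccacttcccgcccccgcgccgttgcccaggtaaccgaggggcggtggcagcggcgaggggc
Hspa1b, chr17:34959239-34959388, minus strand: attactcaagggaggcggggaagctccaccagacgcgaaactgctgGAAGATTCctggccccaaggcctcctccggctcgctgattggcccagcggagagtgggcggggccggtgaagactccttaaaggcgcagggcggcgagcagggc
Hspa1a, chr17:34972157-34972306, minus strand: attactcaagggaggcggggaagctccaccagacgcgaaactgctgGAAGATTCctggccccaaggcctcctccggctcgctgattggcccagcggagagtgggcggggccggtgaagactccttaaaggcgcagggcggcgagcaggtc
Hspe1, chr1:55087998-55088147, plus strand: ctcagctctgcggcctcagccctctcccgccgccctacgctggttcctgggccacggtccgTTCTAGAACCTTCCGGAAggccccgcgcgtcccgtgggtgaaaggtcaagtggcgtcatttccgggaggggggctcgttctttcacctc
Dnajb6, chr5:29735748-29735897, plus strand: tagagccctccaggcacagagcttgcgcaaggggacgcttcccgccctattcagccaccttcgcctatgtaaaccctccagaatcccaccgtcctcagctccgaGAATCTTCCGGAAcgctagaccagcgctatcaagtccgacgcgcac

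Promoter entries existed for 37 of the 43 members (49 windows of 250 bases before a start), 10 of them among the 12 changed genes. One of the 2-unit motifs, GAANNTTC or TTCNNGAA (each reads the same on both strands, and matches can overlap), was present in 15 of the 37, namely 4 of the 10 changed and 11 of the 27 other members with an entry. Counted by window, it was in 17 of the 49 member windows, some of which overlap, and in 12.8% of all 32851 windows. The 3-unit form, GAANNTTCNNGAA or its reverse complement TTCNNGAANNTTC, was found in 0.466% of all windows and in 4 of the 49 member windows. These were the windows of Hspd1, Hspe1 and Dnajb6 (2 overlapping windows), and none of these genes passed the test. The Hspd1 and Hspe1 windows also overlap and hold the same matched bases, read on opposite strands. Every 3-unit match also contains 2-unit matches. The motif TGANTCA is a loose form, with any middle base, of the AP-1 site bound by the JNK-regulated Jun and Fos proteins. It was present in 2 of the 49 member windows, those of Bag3 (TGACTCA) and Cct5 (TGAATCA), and in 6.75% of all windows. A stricter AP-1 site was not counted. Hspa1a and Hspa1b, neighbouring genes with nearly the same protein, shared 247 of their 250 bases.

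Among the cytosolic HSP70 genes Hspa1b rose, Hspa14 fell, as given below, and Hspa1a, Hspa8, Hspa2 and Hspa12a did not pass the test. Hspa1b, the stress-inducible HSP70, gave 1067, 1012 and 1180 units in control and 1345, 1531 and 1410 in shRNA cultures. Every shRNA array was above every control array. The log2 rise was 0.38 (SE 0.063, 95% interval 0.24 to 0.53, limma adjusted p = 0.00698), and its other probe sets gave 0.39 and 0.43. The Hspa1a probe set was dim, at 57.6 to 73.2 units over all arrays, and gave 0.03 (interval -0.22 to 0.27). The coding sequences are close to identical, so signal of the Hspa1b probe sets could also come from Hspa1a transcripts, which was not tested.

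Hspa8, the constitutive HSP70, gave 11930, 11297 and 11691 units in control and 11094, 11102 and 11321 in shRNA cultures. The groups overlapped slightly, with a log2 difference of -0.07 (interval -0.12 to -0.02, limma adjusted p = 0.0941). Hspa2, the testis-enriched form, gave -0.01 (interval -0.20 to 0.18) and the divergent Hspa12a -0.05 (interval -0.28 to 0.18). The intervals of Hspa2 and Hspa12a leave room for a change of the size seen in Hspa9, while that of the kept Hspa8 probe set does not. The other Hspa8 probe sets gave -0.08, without overlap, -0.14 (SE 0.044) and 0.05.

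The HSP70-related genes Hspa13 and Hspa14 went in opposite directions. Hspa13, a short HSP70 associated with microsomes, gave 684, 665 and 605 units in control and 734, 900 and 859 in shRNA cultures, a log2 rise of 0.32 (SE 0.060, limma adjusted p = 0.0124). The groups did not overlap, and its other probe sets above background gave 0.22 and 0.23. The mean of its probe sets did not pass (adjusted p = 0.212), and nor did the fits without control replicate 3 (0.0512), shRNA replicate 2 (0.0642) or shRNA replicate 3 (0.0616). Hspa14, an HSP70-like protein of the ribosome-associated complex, went the other way, from 1499, 1424 and 1316 to 1040, 1227 and 1210 units. Its log2 fall was -0.30 (SE 0.051, limma adjusted p = 0.00799), the lowest control array stood above the highest shRNA array, and a second probe set gave -0.24. Averaged over its probe sets, of which the dimmest lay within background, the difference was -0.15 and did not pass (adjusted p = 0.19).

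The HSP110 genes, nucleotide exchange factors of HSP70, gave a clear rise for 1 of 3. Hspa4l went from 393, 379 and 376 units to 486, 527 and 508, with no overlap. The log2 rise was 0.37 (SE 0.045, interval 0.27 to 0.48, limma adjusted p = 0.00188). All its 4 other probe sets were higher too, by 0.17 to 0.45.

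For Hspa4 the direction depended on the probe set. The kept one gave 2752, 2479 and 2521 units in control and 2858, 3088 and 3045 in shRNA cultures, a log2 rise of 0.20 (limma adjusted p = 0.0112). The next brightest went from 1517, 1521 and 1584 down to 1241, 1386 and 1313, a change of -0.24 that passed when every probe set was tested (adjusted p = 0.011), and the others gave -0.27 and -0.12. Hspa4 is therefore counted as a rise by the rule for choosing probe sets only, and the mean of its probe sets was -0.11 (adjusted p = 0.215). The kept probe set did not pass without control replicate 3 (0.05001), shRNA replicate 2 (0.0609) or shRNA replicate 3 (0.0559), or with chromosome medians centred (0.0858).

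Hsph1, the heat-inducible HSP110, stood just outside the threshold. It gave 1684, 1639 and 1679 units in control and 1449, 1610 and 1553 in shRNA cultures, a difference of -0.12 (interval -0.19 to -0.04, limma adjusted p = 0.0544). The groups did not overlap, and the second probe set gave -0.10.

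The small heat shock proteins held the largest change of all members. Hspb1, which encodes HSP27, gave 1627, 1790 and 1820 units in control and 1138, 1221 and 1161 in shRNA cultures. The lowest control value was well above the highest shRNA value. The control mean was 1745 ± 104 and the shRNA mean 1174 ± 42.6 units (SD, n = 3), a log2 fall of -0.57 (SE 0.055, interval -0.70 to -0.45, limma adjusted p = 0.00072). The second probe set gave 1520, 1676 and 1669 against 923, 1024 and 953 units, a change of -0.74. By its name the kept probe set can match several transcripts of the gene, and the second can also match other sequences.

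The other 3 small HSPs did not pass the test. Cryab, the gene of alpha-B-crystallin, gave 0.12 (interval -0.04 to 0.27) and Hspb6 -0.04 (interval -0.21 to 0.13), with overlapping groups. The dimmer Cryab probe sets gave 0.35 and -0.21, each without overlap. Neither passed the limma test of every probe set (adjusted p = 0.195 and 0.361). Hspb8, a partner of BAG3 in selective autophagy, gave 203, 183 and 192 units in control and 207, 238 and 221 in shRNA cultures, a difference of 0.18 (limma adjusted p = 0.189). A dimmer Hspb8 probe set, whose name marks probes that can match other sequences, went from 53.0, 53.9 and 73.2 units to 156, 146 and 172, a log2 rise of 1.19 that passed the test of every probe set (adjusted p = 0.00262, against 6.37% of all probe sets called). The remaining one gave 0.23, so the Hspb8 probe sets share a direction but not a size, and their mean of 0.54 passed (adjusted p = 0.00346).

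Within the J-domain proteins, which set HSP70 to work on its clients, 2 rose, 1 fell and 4 did not pass. Dnajb4, studied in lung cancer as HLJ1, a suppressor of invasion, gave 369, 365 and 322 units in control and 458, 549 and 555 in shRNA cultures. The groups stood apart, and the log2 rise was 0.53 (SE 0.073, interval 0.36 to 0.70, limma adjusted p = 0.00339). A dimmer probe set went from 95.03, 67.7 and 61.2 to 114, 179 and 183 units, a rise of 0.92, while another at about 150 to 165 units in control gave -0.04.

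Dnaja1, a major cytosolic partner of HSP70, fell. It gave 4221, 4399 and 4111 units in control and 3218, 3621 and 3738 in shRNA cultures, a log2 change of -0.29 (SE 0.050, limma adjusted p = 0.00804) with no overlap. Its other probe sets gave -0.41 and -0.48. Dnajb1, the classical heat-inducible HSP40, gave 1129, 1105 and 1162 units against 974, 1102 and 1063, a difference of -0.12 (limma adjusted p = 0.0998) on one probe set and 0.05 on the other. Dnaja2 (-0.04), Dnajb6 (0.05) and Dnajb2 (0.13) did not pass either.

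**Figure D2:**
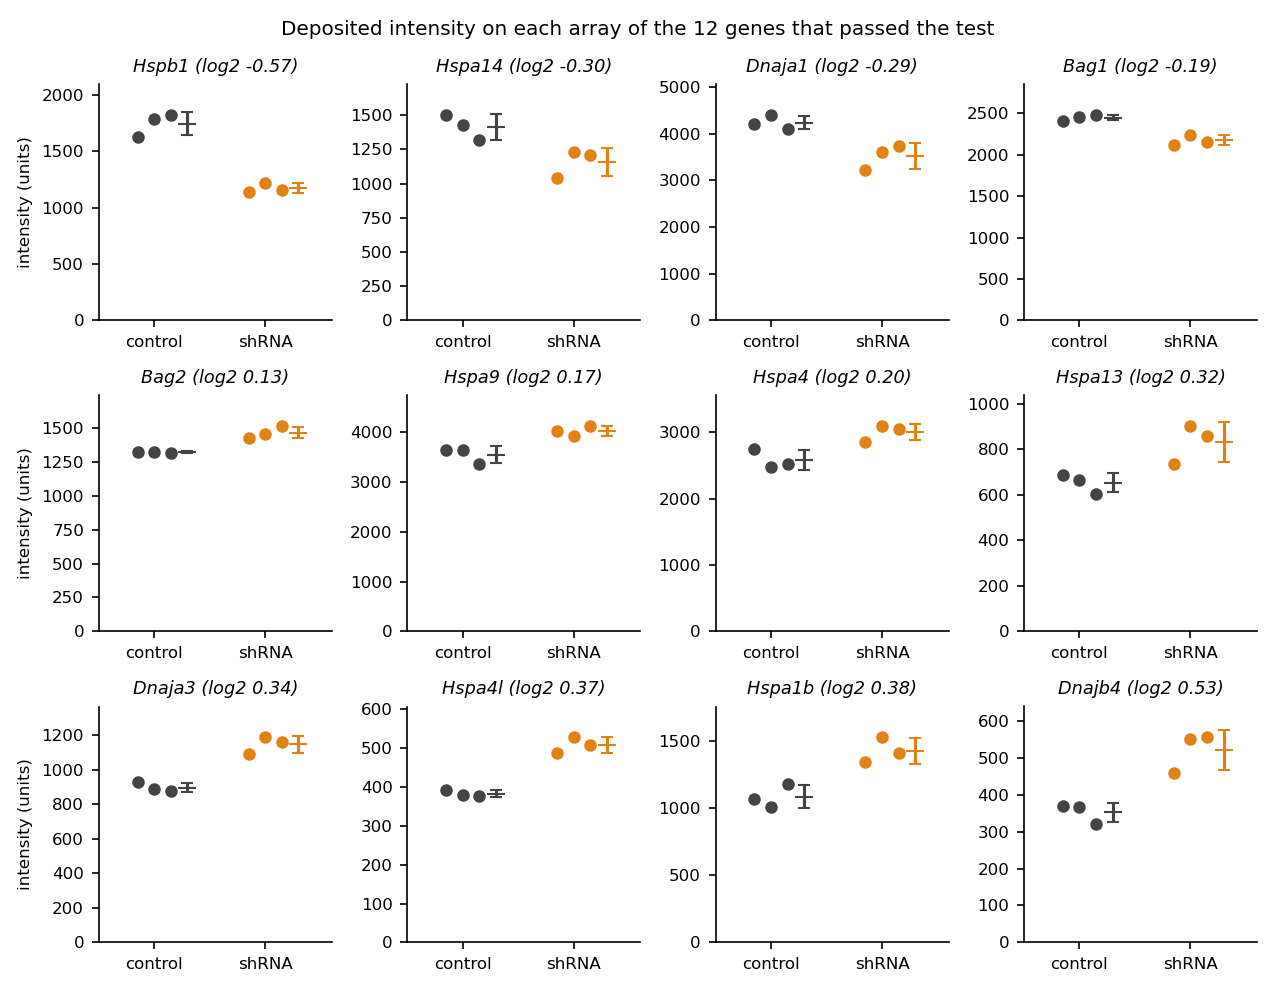
Deposited intensity (vertical axis, linear from 0) on each control and shRNA array for the 12 genes that passed the test, ordered by log2 difference. Points are single arrays and the marks beside them the mean ± SD of 3; in each of the 12 panels the control and shRNA points do not overlap, from Hspb1 (1745 to 1174 units) to Dnajb4 (352 to 521 units).

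The mitochondrial chaperones were uneven. Dnaja3 (TID1), the J-domain protein of the matrix, went from 927, 887 and 876 units to 1093, 1187 and 1159, a log2 rise of 0.34 (SE 0.033, limma adjusted p = 0.000734). The groups did not overlap, and the second probe set above background gave 0.33. The remaining one lay within background on all arrays, and the mean over all its probe sets did not pass (0.23, adjusted p = 0.0951).

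Hspa9, the mitochondrial HSP70 (mortalin) that pulls precursors into the matrix, gave 3645, 3639 and 3352 units in control and 4023, 3925 and 4115 in shRNA cultures. The groups did not overlap, and the log2 rise was 0.17 (SE 0.041, limma adjusted p = 0.0362). Its other probe sets above background gave 0.09 to 0.23. It passed in 7 of 17 alternative settings and in none of the fits that left out 1 array, where the adjusted p ran from 0.0524 to 0.136 (control replicates 0.0524 to 0.0907, shRNA replicates 0.0625 to 0.136).

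The HSP60 and HSP10 pair did not pass the test, and its differences were near 0. Hspd1 gave 7863, 7611 and 7373 units in control and 7741, 7720 and 8097 in shRNA cultures, and Hspe1 5368, 5068 and 4909 against 5196, 5232 and 5284. The differences were 0.02 and 0.00, and both 95% intervals lay between -0.08 and 0.08. These genes neighbour each other head to head, and the Hspe1 sequence above, with the longest run of heat shock units shown, lies between their starts. Trap1, the HSP90 of mitochondria, gave 0.11 (interval 0.01 to 0.20, limma adjusted p = 0.161). Its second probe set gave 0.19 (SE 0.058) and did not pass the limma test of every probe set (adjusted p = 0.115).

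Of the HSP70 co-chaperones the BAG genes moved in both directions. Bag1, which links HSP70 to the proteasome, gave 2411, 2455 and 2476 units in control and 2121, 2239 and 2158 in shRNA cultures, a log2 fall of -0.19 (SE 0.032, limma adjusted p = 0.00772) with no overlap. Bag2, an inhibitor of the ubiquitin ligase CHIP, went from 1325, 1320 and 1312 to 1427, 1458 and 1512 units. Its rise of 0.13 stood just inside the threshold (limma adjusted p = 0.0498) and passed in 3 of 17 alternative settings, and in no fit that left out 1 array (adjusted p 0.0542 to 0.148). Bag3 (-0.03), Stub1, the gene of CHIP (-0.05), and Hspbp1 (0.04) overlapped between groups.

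The HSP90 machinery gave no call. Hsp90aa1, the inducible cytosolic HSP90, gave 10757, 10065 and 10175 units in control and 9840, 9871 and 10548 in shRNA cultures, a difference of -0.03 (interval -0.10 to 0.04). Its other probe sets above background gave -0.05, -0.13 (SE 0.047) and 0.03, none passing the limma test of every probe set. Its co-chaperones Stip1 (HOP, -0.05), Ahsa1 (an ATPase activator, 0.03), Cdc37 (the kinase adaptor, 0.00) and Fkbp4 (an immunophilin of steroid receptors, 0.10) all had 95% intervals between -0.15 and 0.22. Hsf2, the one heat shock factor measured among the members, was dim and spread: 78.9, 81.5 and 63.2 units in control and 75.8, 106 and 109 in shRNA cultures, a difference of 0.30 with an interval of -0.06 to 0.66.

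None of the 7 CCT genes passed the test, and their intervals were narrow. The differences ran from -0.11 for Tcp1 to 0.10 for Cct5, and the 95% intervals of all 7 lay between -0.18 and 0.16. Cct5 gave 6045, 6153 and 6102 units in control and 6457, 6607 and 6930 in shRNA cultures (limma adjusted p = 0.0567), and Tcp1 6343, 6598 and 6232 against 5786, 6190 and 6219 (0.0729). Tcp1 was among the falls gained when the dimmer genes were left out of the fit. The groups did not overlap for Cct2, Cct3, Cct4 and Cct5, higher in the shRNA cultures, and for Tcp1, lower in them. Overlap was judged on deposited intensities, while the differences were taken after quantile normalization. Among all genes 14.6% were above and 11.3% below without overlap. Of the 9097 genes no dimmer than the median gene, 1949 were above and 1450 below. The smallest adjusted p of the genes other than Cct5 and Tcp1 was 0.12, for Cct3. The 95% intervals of Cct3 (0.01 to 0.12), Cct5 (0.04 to 0.16) and Tcp1 (-0.18 to -0.03) excluded 0. A dimmer Cct3 probe set gave 0.13 and passed the limma test of every probe set (adjusted p = 0.0399, against 6.37% of all probe sets called). The median SE was 0.043 over the members and 0.091 over all genes, and 41 of the 43 members were no dimmer than the median gene. The SE of genes of like brightness was not compared.

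Genes typical of an acute heat shock response were called about as often as bright genes at large, and in both directions. Of 14 members taken as HSF1-driven in that response, 1 rose (Hspa1b), 2 fell (Hspb1 and Dnaja1) and 11 did not pass, with a median log2 change of -0.03. This is 21.4% called, beside 11.8% of all genes and 20.8% of those no dimmer than the median gene, to which 13 of the 14 belong. Among those 11 were Hspa8, Hsph1, Hsp90aa1, Dnajb1, Bag3, Hspd1, Hspe1, Stip1 and Ahsa1, described above.

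**Figure D3:**
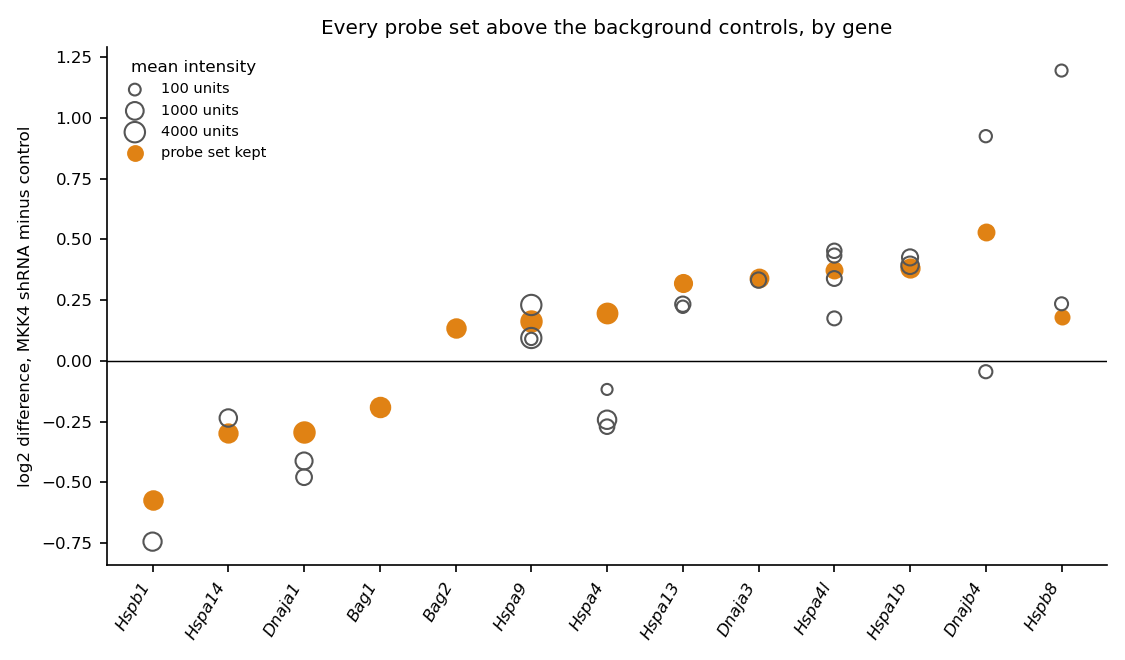
Log2 difference, MKK4 shRNA minus control, of every probe set above the background controls for the 12 genes that passed and for Hspb8. Filled points are the probe sets kept and point size follows mean intensity; the probe sets share a sign for Hspb1, Dnaja1, Hspa1b and Hspa4l, while Hspa4 runs from -0.27 to 0.20 and Hspb8 from 0.18 to 1.19.

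The probe sets of a changed gene mostly had the same sign. Of the 12, Bag1 and Bag2 have a single probe set. For 8 of the other 10, each further probe set above background had the sign of the kept one, the exceptions being Hspa4 and Dnajb4. Dropping the probe sets whose names mark possible matches to several transcripts or other sequences removed Hspb1 altogether, left for Dnaja3 only the probe set within background (0.03), and put Hspa4l at 0.34 (limma adjusted p = 0.0506).

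**Figure D4:**
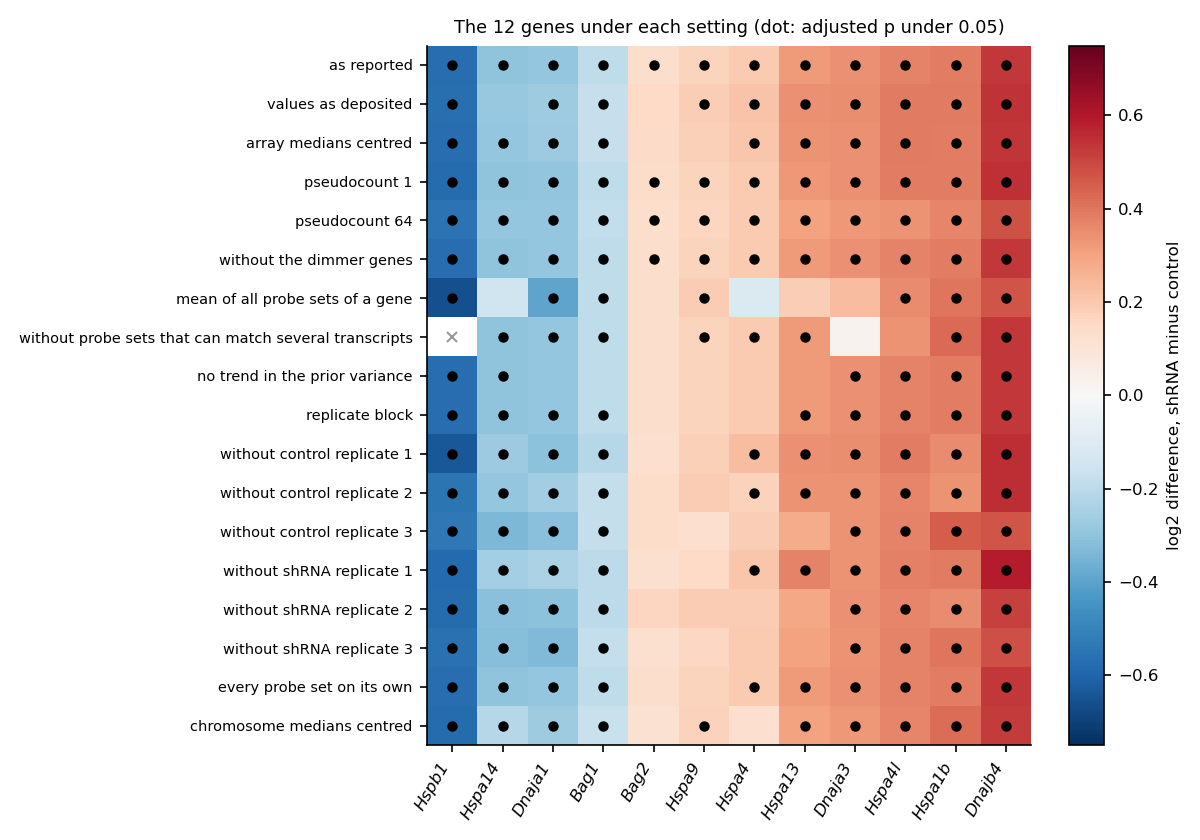
Log2 difference of the 12 genes (columns) under each processing setting (rows), with a dot where the adjusted p was under 0.05 and a cross where the gene had no probe set. Hspb1, Hspa1b and Dnajb4 carry a dot in each setting that measured them, while Bag2 carries 3 beside the one as reported.

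Other genes of the chaperone network, 99 measured outside the members, gave 5 rises and 10 falls. This is 15.2% called, beside 11.8% of all genes and 20.8% of genes no dimmer than the median gene, to which 88 of the 99 belong. The lists below ran from 4.35% called (other J-domain genes) to 25.0% (ER chaperones). Among mitochondrial chaperones and proteases 1 of 14 changed: Lonp1, the matrix protease that removes misfolded proteins, rose from 1314 ± 65.1 units in control to 1818 ± 49.3 in shRNA cultures (SD, n = 3), by 0.45 on the log2 scale (limma adjusted p = 0.00172), next to the rises of Dnaja3 and Hspa9. Among the other HSP70, HSP90 and small HSP genes and co-chaperones 2 rose and 3 fell of 27. Fkbp5, an immunophilin of HSP90, rose by 0.27 and St13, the HSP70-interacting protein HIP, by 0.14, while the HSP90 partner gene Sugt1 changed by -0.28, Hspb11 by -0.24 and Tomm34, a factor of mitochondrial import, by -0.16.

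Of 23 other J-domain genes only Dnajc5, the gene of cysteine string protein, changed (-0.31, limma adjusted p = 0.00443). Among 15 prefoldin genes and CCT partners Tbcb, a tubulin folding cofactor, rose by 0.20 and the prefoldin gene Pfdn5 by 0.19, and Pfdn1 changed by -0.15. Of 20 ER chaperones none rose and 5 fell, led by the disulfide isomerases Pdia3 (-0.44) and Pdia6 (-0.34) and the lectin chaperone Calr (-0.33). The ER HSP70 Hspa5 gave -0.08 (limma adjusted p = 0.45). The network's rises numbered 2 without control replicate 1 or shRNA replicate 3 and 3 without control replicate 2 or shRNA replicate 2, and its falls 6 without shRNA replicate 2 or 3.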

How the data were processed

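The authors deposited 1 intensity per probe set and array on a linear scale, from biotin-labelled cRNA on 1-colour Affymetrix arrays per the labels' protocols. How probes were summarised and normalized by the submitters is not given in the sources used here. Here log2(intensity + 16) was quantile-normalized, 64 control probe sets were left out, and limma 3.58.1 (R 4.3.3; lmFit, eBayes with a trend) compared groups over 18193 genes with Benjamini-Hochberg adjustment. Fold changes refer to log2(intensity + 16) and are too small for dim genes. Values per array, means and SDs are deposited intensities, and overlap of groups was judged on them. A gene with several probe sets was represented by the brightest, by mean normalized value. The smallest exact permutation p for 3 against 3 arrays is 0.1. The number of arrays limits the precision. Network genes named are up to 3 called in each direction per list. Members and lists were chosen with earlier results of these data known. The test was checked on simulated data. Alternatives changed the normalization, pseudocount, probe set choice, dim-gene filter, variance trend, block and arrays used; chromosome centring was added after seeing the data.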

Additional observations from a re-analysis of the deposited data

How the results depend on the processing

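Map2k4 kept its direction and call in 17 of 17 alternatives, with log2 changes from -1.28 to -1.09. Of 203 settings over the 12 called members, 160 kept direction and call, 42 kept the direction and lost the call, and 1 reversed: Hspa4 at -0.11 with the mean of its probe sets. Members higher, 8 as reported, numbered 9 without the dimmer genes and 5 with the mean of all probe sets. With that mean they were Hspa1b, Hspa9, Hspa4l, Dnajb4 and Hspb8, the last not called as reported. They numbered 5 without the probe sets marked for several transcripts or sequences and 4 with no trend in the prior variance. Leaving out 1 array gave 4 to 6. Members lower, 4 as reported, numbered 7 without the dimmer genes, where Hspa8, Hsph1 and Tcp1 also passed, and 2 with no trend; leaving out 1 array gave 4. Network genes higher, 5 as reported, numbered 10 without the dimmer genes, 2 with no trend, 3 with every probe set on its own and 2 to 4 with 1 array left out; network genes lower, 10 as reported, 6 to 8 with 1 array left out. Over all genes, 1158 higher and 981 lower became 654 and 473 with no trend, and 641 to 912 and 518 to 750 with 1 array left out; 565 were lower with the values as deposited and 561 with array medians centred. No pairing of arrays by replicate letter was seen. Deviations of same-lettered arrays from their group means correlated at -0.03, -0.01 and -0.11 across genes, and arrays did not all correlate best with their own letter. Such correlations cannot show that same-lettered cultures were handled apart. With the replicate block 5 members were higher and 4 lower, 2 network genes higher and 7 lower, and 686 genes higher and 520 lower. The cause of these shifts was not tested. Near the background controls, as for Hspa1a and Hsf2, the arrays leave wide intervals.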
